A study of Bos taurus with 6 samples.

Results

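Potassium channel genes were taken as every gene of the deposited expression table whose name begins with KCN and whose level was above 0 in at least 1 of the 6 libraries. The level is given in FPKM, the fragments counted to a gene scaled by its length and by all fragments counted in the library, so levels of different genes can be compared per length. Of 91 KCN genes in the table, 65 met this rule, out of 16770 genes above 0 and 21972 genes in all. The members were chosen by their expression values, so their detection is a description and not a result. By role, 51 of the 65 encode subunits of the channel pore and 14 encode auxiliary or regulatory subunits.

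Potassium channels let potassium ions leave or enter a cell along their gradient, and in skeletal muscle they hold the resting potential and end the action potential. Voltage-gated channels open when the membrane is depolarized, inward rectifiers carry current best near the resting potential, tandem-pore channels carry a leak current, and other channels open on intracellular calcium or sodium. Pore subunits assemble as tetramers or dimers, and auxiliary subunits change how they gate, how fast they inactivate or how many reach the membrane.

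Longissimus dorsi muscle (LDM), a muscle that runs along the spine, was sampled in males of 2 breeds. Japanese black (Wagyu) cattle gave libraries WC616, WC719 and WC921, and libraries RC4, RC5 and RC6 are those of Chinese Red Steppes cattle, with 3 animals in each breed. Each animal was 28 months old and gave 1 poly(A) library, and no treatment is named. The 3 males of a breed had a common father, and each breed came from its own provider, so breed, sire and provider cannot be told apart. The LDM is bulk tissue, in which fewer cells of a type and less RNA per cell cannot be told apart.

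Each library held 15438095 to 16197141 reads counted to genes, and every level above 0 turned back into whole reads. Reads given for a gene are the smallest whole numbers that fit its 6 levels, so they are lower bounds. The 5 skeletal muscle markers summed to 55637 to 64182 FPKM in Wagyu and to 68015 to 69658 FPKM in Chinese Red Steppes. Only ACTA1 of these 5 was without overlap between the breeds, at 31588 to 36258 FPKM in Wagyu and 41181 to 45751 FPKM in Chinese Red Steppes. Sums were 137 to 387 FPKM for 6 smooth muscle and pericyte markers, 46.4 to 78.2 FPKM for 5 endothelium markers and 2.63 to 6.84 FPKM for 5 leukocyte markers. RC6 stood apart from RC4 and RC5: its 5 slow fibre markers were higher by 0.84 to 1.82 on the log2 scale than their mean, and its 5 fast fibre markers were lower by 0.69 to 2.03. Fold changes of several genes are therefore given with and without RC6.

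Most potassium channel transcript came from a few genes. The summed FPKM of the 65 members was 223, 279 and 267 in Wagyu (WC616, WC719, WC921) and 282, 214 and 185 in Chinese Red Steppes (RC4, RC5, RC6). The breeds overlapped, with means of 257 ± 29.4 and 227 ± 49.9 (SD, n = 3 each). The gene with the highest mean level held 30.5% of the family's mean FPKM, the top 3 held 65.9% and the top 6 held 81.3%. At the other end, the 47 members with a mean below 1 FPKM held 2.71% together. Of the members, 6 (9.23%) had a mean of at least 10 FPKM, against 24.4% of all genes above 0, and 18 (27.7%) had a mean of at least 1 FPKM, against 59.6%.

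**Figure D1:**
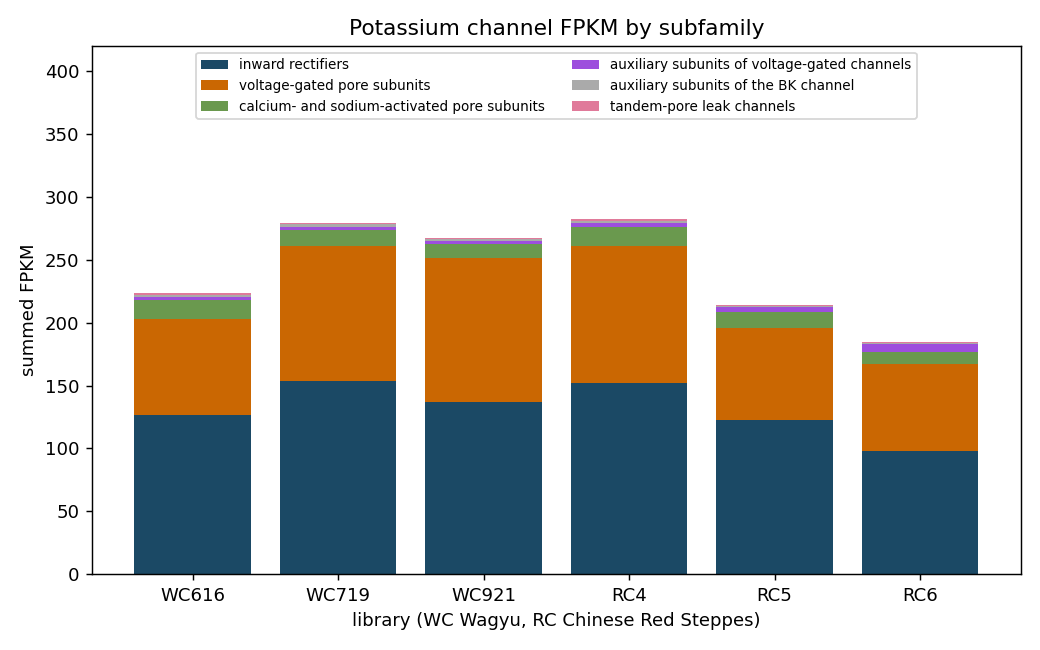
Stacked bars give the summed FPKM of the 65 potassium channel genes in each of the 6 libraries, split by subfamily. Inward rectifiers and voltage-gated pore subunits make up most of every bar, and the bars run from 185 FPKM in RC6 to 282 FPKM in RC4.

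Inward rectifiers held the largest share of the 6 subfamilies in each library, 51.2% to 57.1% of the family's FPKM, from 8 members. KCNJ11, the pore of the ATP-sensitive channel that opens when cellular ATP falls, stood at 58.2, 85.8 and 84.9 FPKM in Wagyu and at 89.2, 70.6 and 53.6 FPKM in Chinese Red Steppes, in the order given for the libraries above. KCNJ12, a strong inward rectifier that helps to set the resting potential, stood at 60.1, 60.6 and 46.0 FPKM in Wagyu and at 54.1, 45.5 and 34.1 FPKM in Chinese Red Steppes. The breeds overlapped for both genes, and RC6 was the lowest library for both. In human KCNJ12 has a near-identical copy, KCNJ18, and how reads of near-identical genes were counted here is not given in the sources used. KCNJ8, the other pore of ATP-sensitive channels and known from vascular muscle and pericytes, was at 4.78 to 5.74 FPKM in Wagyu and 4.83 to 7.25 FPKM in Chinese Red Steppes. KCNJ2, the classical strong rectifier of heart and muscle, was lower still, at 1.14 to 3.46 and 1.30 to 2.79 FPKM. The other 4 inward rectifiers, KCNJ5, KCNJ9, KCNJ14 and KCNJ15, each had a mean below 0.1 FPKM.

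Voltage-gated pore subunits, 26 members, held 34.0% to 42.9% of the family's FPKM. KCNA7, a Shaker-type subunit known from human skeletal muscle and heart, stood at 27.0, 47.1 and 52.1 FPKM in Wagyu and at 39.0, 26.1 and 22.2 FPKM in Chinese Red Steppes. It was the third gene of the family by mean level, and its breeds overlapped. KCNQ5, of the family that carries slow, non-inactivating currents, was at 4.67 to 6.27 FPKM in Wagyu, at 5.03 and 4.69 FPKM in RC4 and RC5 and at 1.42 FPKM in RC6. KCNA5, a delayed rectifier known from the human atrium, ranged from 1.32 FPKM in WC616 to 8.32 FPKM in WC921, wider than its range of 2.84 to 3.83 FPKM in Chinese Red Steppes. KCNH2, which repolarizes the human ventricle, was at 1.14 to 1.81 FPKM in Wagyu, at 1.36 and 1.54 FPKM in RC4 and RC5 and at 4.53 FPKM in RC6. KCNS3, a subunit that forms no channel alone and modifies other pores, was at 1.10 to 2.70 and 1.90 to 2.30 FPKM.

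Channels opened by calcium or sodium, 8 members, held 4.15% to 6.82% of the family's FPKM. KCNT1, the pore of a sodium-activated channel, led them at 4.94 to 7.49 FPKM in Wagyu and 4.26 to 9.37 FPKM in Chinese Red Steppes. KCNN3 and KCNN1, pores of small-conductance calcium-activated channels, were at 2.64 to 3.93 and 0.660 to 2.12 FPKM over the 6 libraries. KCNMA1, the pore of the large-conductance (BK) channel, was at 2.07, 1.94 and 1.77 FPKM in Wagyu and at 1.53, 1.25 and 1.63 FPKM in Chinese Red Steppes. Its auxiliary subunits KCNMB1, KCNMB3 and KCNMB4 summed to 1.70, 1.88 and 1.79 FPKM in Wagyu and to 1.36, 1.45 and 1.53 FPKM in Chinese Red Steppes. KCNMB4, best known from brain, had the highest mean of these 3 at 0.747 FPKM, and KCNMB1, best known from smooth muscle, was next at 0.675 FPKM. The order differed by library, with KCNMB1 above KCNMB4 in WC616 (0.906 against 0.495 FPKM) and WC719 (1.10 against 0.563 FPKM) and below it in the other libraries. In the RefSeq annotation (ARS-UCD2.0) KCNMB4 overlaps PTPRB, KCNMB1 overlaps KCNIP1 and KCNMB3 overlaps PIK3CA. These overlaps are of whole gene spans, and whether exons overlap was not checked. Only where exons overlap and strand was not counted could reads of such genes not be told apart.

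Tandem-pore leak channels were low, with 9 members that held 0.309% to 0.735% of the family's FPKM. Their highest member was KCNK12, at 0.355 FPKM over the 6 libraries. Auxiliary subunits of voltage-gated channels, 11 members, summed to 2.28, 2.82 and 1.95 FPKM in Wagyu and to 3.06, 3.99 and 5.66 FPKM in Chinese Red Steppes. KCNIP2, a calcium-binding partner of KCND channels, had the highest mean of them. It was at 1.32, 1.78 and 0.747 FPKM in Wagyu and at 0.895, 1.83 and 4.03 FPKM in Chinese Red Steppes. In RC4 another of them, KCNE1L, was higher, at 1.03 FPKM. The breeds overlapped for KCNIP2, and RC6 alone was above 2 FPKM. The KCND pores that it joins were themselves low, with KCND1 at 0.204 to 0.570 FPKM and KCND3 above 0 in RC5 alone.

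**Figure D2:**
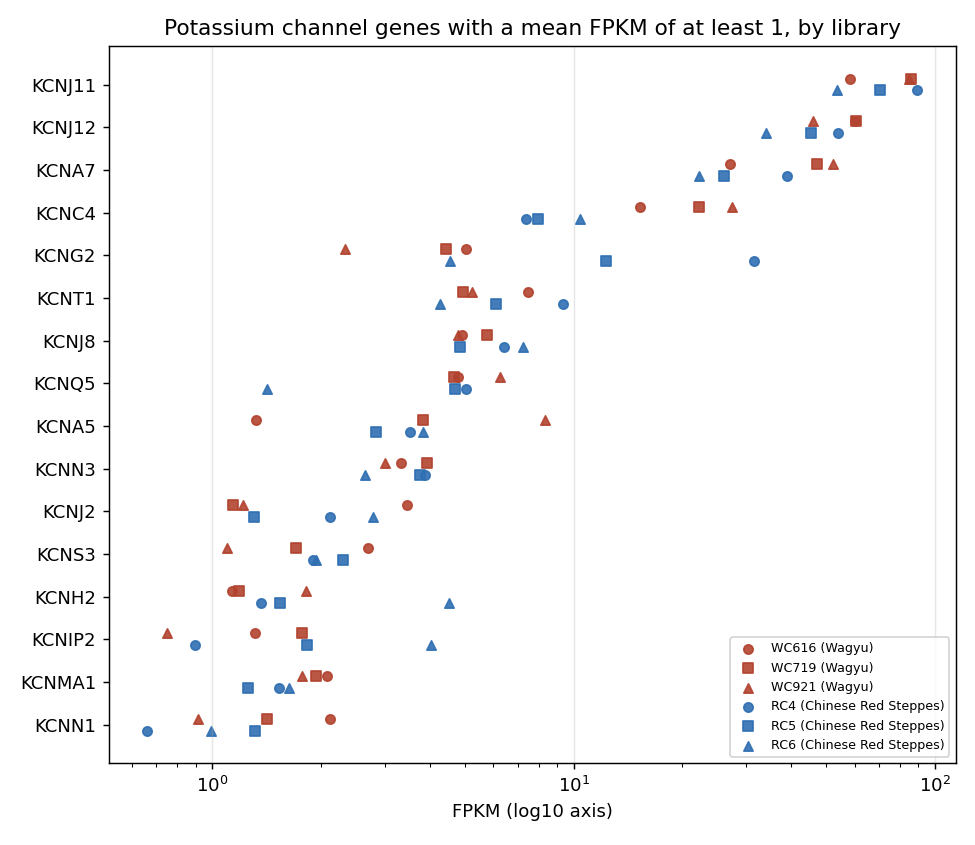
Points give the FPKM, on a log10 axis, of 16 potassium channel genes with a mean of at least 1 FPKM in each library, with color for the breed and a marker for the library. The points of the breeds lie apart for KCNC4 and KCNMA1 and overlap for the rest of the genes drawn.

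To ask whether the breeds differed, log2(FPKM + 1) was compared with limma over the 9990 genes with a mean of at least 1 FPKM, which 18 members passed. Fold changes are log2 differences on this scale, positive where Wagyu was higher, and the 1 added to each FPKM shrinks those of low genes. None of the 18 passed an adjusted p of 0.05 (Benjamini-Hochberg over all genes tested), a threshold passed by 0.02% of all genes tested, 2 genes in number. At an unadjusted p under 0.05, 3 of the 18 members (16.7%) stood beside 14.5% of all genes tested, so the members' share was near the background. Among them were KCNC4, higher in Wagyu, and KCNG2, lower in Wagyu. The median log2 fold change was 0.06 over the 18 members and 0.03 over all genes tested. With whole reads recovered from the FPKM values, edgeR called 0 of 24 members (0.0685% of all genes tested were called). It put 3 of the 24 (12.5%) at an unadjusted p under 0.05, beside 14.1% of all genes tested. DESeq2 called 1 of 28 members (1.94% of all genes tested were called), which was KCNC4. It put 5 of the 28 (17.9%) at an unadjusted p under 0.05, beside 12.8% of all genes tested. With no filter on low reads edgeR also called KCNC4, 1 of 65 members, where 0.191% of genes were called.

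Without a test, 3 of the 18 members had no overlap between the breeds, which is 16.7% beside 20.6% of all genes tested. All 3 were higher in Wagyu, KCNC4 and KCNMA1 among them, a direction that 11.4% of all genes tested shared. For the other 15 members the values of the breeds overlapped.

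**Figure D3:**
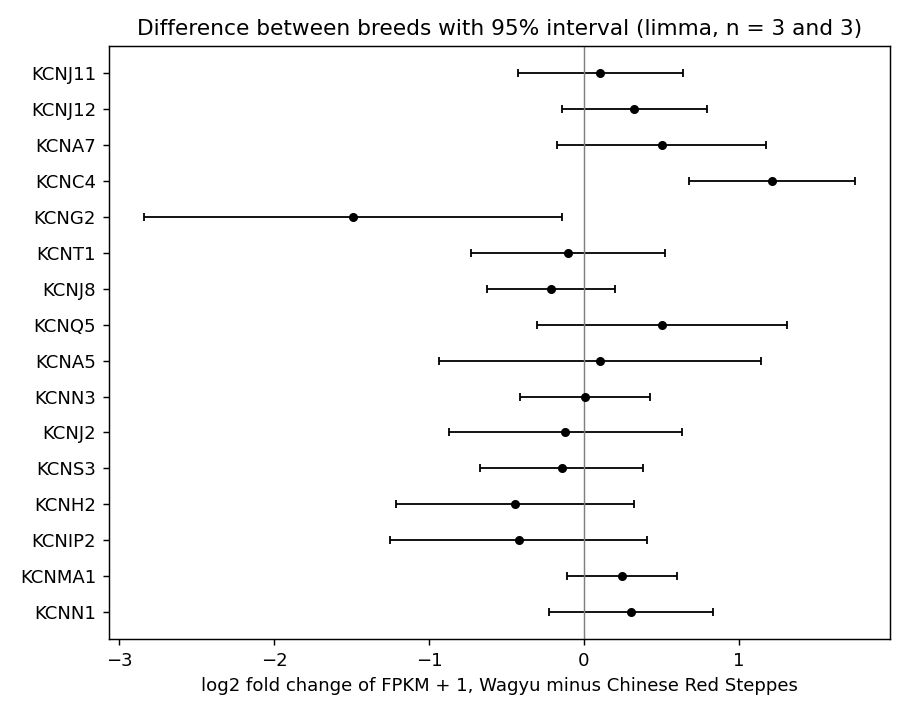
Points give the log2 fold change of FPKM + 1, Wagyu minus Chinese Red Steppes, of 16 members tested with limma, and bars give its 95% interval (n = 3 per breed). The intervals of KCNC4 and KCNG2 leave out 0 before adjustment, and those of the rest of the genes drawn hold it.

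KCNC4 was the fourth gene of the family by mean level and was higher in each Wagyu library. It encodes a Shaw-type subunit whose channels open at strong depolarization, close fast and, in this member, inactivate quickly. Its level was 15.3, 22.2 and 27.4 FPKM in Wagyu and 7.39, 7.95 and 10.4 FPKM in Chinese Red Steppes, from 358 to 1333 reads a library. All 3 Wagyu values lay above the 3 Chinese Red Steppes values. The means were 21.6 ± 6.07 and 8.58 ± 1.60 FPKM (SD, n = 3 each), a ratio of 2.52. The log2 fold change was 1.22 (SE 0.23, 95% interval 0.68 to 1.75), with an adjusted p of 0.156 in limma. On recovered reads it was 1.30 with an adjusted p of 0.115 in edgeR, 0.0444 in edgeR without a filter and 1.94e-04 in DESeq2. Over 20 alternatives the log2 fold change lay between 1.03 and 1.45 and the adjusted p between 2.66e-05 and 0.403, so the direction held in all 20 and the call in 3 of them.

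KCNMA1 had means of 1.93 ± 0.151 and 1.47 ± 0.194 FPKM (SD, n = 3 each), with a log2 fold change of 0.25 (SE 0.15, 95% interval -0.11 to 0.60) and an adjusted p of 0.493 in limma. Its groups did not overlap, with 1.77 FPKM in WC921 and 1.63 FPKM in RC6 as the nearest values. The BK channel is abundant in smooth muscle. Beside 53.7% of all genes tested, 5 of the 6 smooth muscle and pericyte markers had a log2 fold change above 0. Their summed level was 213 to 387 FPKM in Wagyu and 137 to 360 FPKM in Chinese Red Steppes, and PDGFRB, a pericyte receptor, was at 12.6 to 18.7 against 6.07 to 9.12 FPKM (log2 fold change 0.82, adjusted p 0.202 in limma). CNN1 lay the other way, at 7.03 to 24.6 against 5.71 to 36.1 FPKM (log2 fold change -0.12, adjusted p 0.954 in limma). The breeds overlapped for ACTA2, MYH11, TAGLN, CNN1 and RGS5. None of the 6 was at 0 in a library, and their part in the KCNMA1 values was not tested. The auxiliary subunit KCNMB1 was at 0.906, 1.10 and 0.396 FPKM in Wagyu and 0.537, 0.508 and 0.600 FPKM in Chinese Red Steppes, with overlap.

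KCNG2 pointed the other way, with values that differed widely within Chinese Red Steppes. It encodes a subunit that forms no channel alone and joins delayed-rectifier pores to alter their gating. Its level was 5.02, 4.43 and 2.32 FPKM in Wagyu, 31.6 FPKM in RC4, 12.3 FPKM in RC5 and 4.55 FPKM in RC6. RC4 and RC5 lay above the 3 Wagyu libraries, while RC6 lay among them. The means were 3.93 ± 1.42 and 16.1 ± 13.9 FPKM (SD, n = 3 each), so the mean was 4.11 times as high in Chinese Red Steppes, with an SD nearly as large as that mean. The log2 fold change was -1.49 (SE 0.58, 95% interval -2.84 to -0.14), with an adjusted p of 0.32 in limma. Without RC6 it was -2.12 (adjusted p 0.162), and without RC4 it was -0.85 (adjusted p 0.336). DESeq2 without RC6 gave -2.53 (adjusted p 7.55e-06, where 1.86% of genes were called) and edgeR without RC6 gave -2.53 (adjusted p 0.0856, where 0.117% of genes were called). With all 6 libraries the adjusted p was 0.191 in DESeq2 and 0.232 in edgeR, so the call in DESeq2 exists without RC6 and not with it.

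Of 6 Schwann cell and nerve markers 4 were, as KCNG2 was, highest in RC4 and next in RC5. MBP, a myelin protein, was at 7.90 to 12.4 FPKM in Wagyu and 17.6 to 21.1 FPKM in Chinese Red Steppes, while S100B lay the other way at 30.6 to 44.3 and 16.5 to 27.3 FPKM. SOX10, a factor of Schwann cells, was at 0.58 FPKM in RC4 and at 0.13 to 0.19 FPKM in the other libraries, and NEFL, a neurofilament, was at 0 in all 6. The summed level of the 6 markers was 43.3 to 53.6 FPKM in Wagyu and 37.7 to 63.8 FPKM in Chinese Red Steppes. In Wagyu S100B was the largest part of this sum. Of the 3 that were tested, 1 had a log2 fold change above 0 and 2 below. All 3 had an unadjusted p under 0.05 in limma, beside 14.5% of all genes tested, and 0 were called. The part of the 6 markers in the KCNG2 values was not tested.

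**Figure D4:**
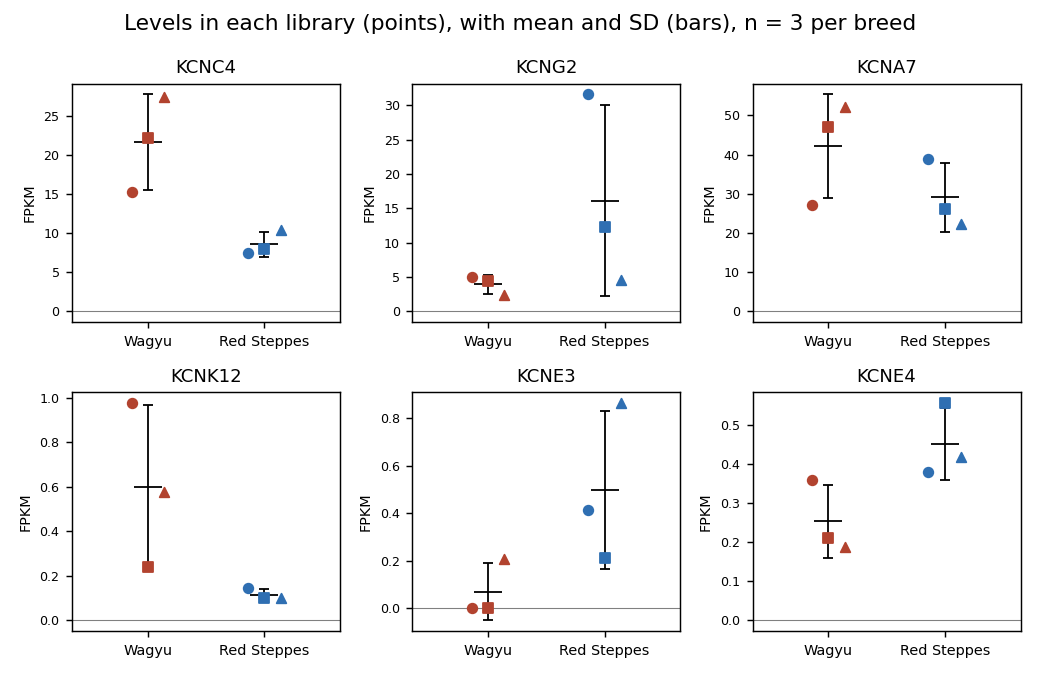
Points give the FPKM of 6 potassium channel genes in each library (circles WC616 and RC4, squares WC719 and RC5, triangles WC921 and RC6), and bars give the mean and SD of each breed (n = 3). KCNC4 and KCNK12 are higher in each Wagyu library, KCNE3 and KCNE4 are lower, KCNA7 overlaps, and for KCNG2 the value of RC4, 31.6 FPKM, is far from that of RC6, 4.55 FPKM.

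Among the 17 members with a mean between 0.1 and 1 FPKM, 4 had no overlap between the breeds, which is 23.5% beside 14.2% of all genes at these levels. Of these 4, 2 were higher in Wagyu, KCNK12 among them, as 6.87% of all genes at these levels were, and KCNE4 and KCNE3 were lower, as 7.36% were. These levels rest on few recovered reads. KCNK12, a tandem-pore subunit, had 20, 5 and 12 reads in WC616, WC719 and WC921 and 3, 2 and 2 reads in RC4, RC5 and RC6, or 0.239 to 0.975 against 0.098 to 0.144 FPKM. Its log2 fold change was 2.30 (SE 0.75, adjusted p 0.248) in edgeR without a filter. KCNE4, a membrane protein that holds back several voltage-gated channels, had 15, 9 and 8 reads against 16, 23 and 17, or 0.188 to 0.359 against 0.379 to 0.556 FPKM, with a log2 fold change of -0.85 (SE 0.42, adjusted p 0.393) in edgeR. KCNE3, of the same small family, had 0, 0 and 1 reads against 2, 1 and 4. WC921 and RC5 thus held 1 recovered read each, and their order in FPKM rests on library depth. The 8 recovered reads in all, a lower bound, cannot carry a comparison.

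The remaining members of this range overlapped between the breeds. KCNQ1, the pore of the slow cardiac delayed rectifier, was at 0.563 to 0.703 FPKM in Wagyu and 0.387 to 0.820 FPKM in Chinese Red Steppes. KCNAB1, a cytoplasmic subunit that speeds inactivation of KCNA channels, had 10, 11 and 20 reads in Wagyu and 1, 25 and 13 reads in Chinese Red Steppes. Its gene span overlaps that of SSR3 in the RefSeq annotation, and whether exons overlap was not checked here either. KCNQ3 had 23 reads in RC5 and 1 to 5 reads in the other libraries, and KCNE1L had 23 and 11 reads in RC4 and RC5, 8 and 7 in WC616 and WC719, and 0 in WC921 and RC6. Most reads of KCNQ3 were thus in 1 library, and most of those of KCNE1L in 2.

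For the 15 tested members that did not reach an unadjusted p under 0.05 the log2 fold changes lay between -0.45 for KCNH2 and 0.51 for KCNQ5. KCNA7 had a log2 fold change of 0.50 (SE 0.29, 95% interval -0.17 to 1.18, adjusted p 0.461 in limma). Without WC616 it was 0.79, without WC921 it was 0.32, and without RC6 it was 0.34. For KCNJ12 it was 0.33 (95% interval -0.14 to 0.79), or 0.15 without RC6, and for KCNJ11 it was 0.11 (95% interval -0.43 to 0.64). KCNN3 had the smallest, 0.0049 (95% interval -0.42 to 0.42), with means of 3.42 ± 0.469 and 3.42 ± 0.683 FPKM (SD, n = 3 each). An adjusted p above the threshold does not show that the breeds were alike, and the intervals give the differences that these libraries allow.

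Part of the spread lay within the Chinese Red Steppes. RC6 differed from the mean of RC4 and RC5 by at least 1 on the log2(FPKM + 1) scale for 4 of the 18 members, against 5.7% of all genes tested. KCNH2 and KCNIP2 were higher in RC6 by 1.18 and 1.12, and KCNG2 and KCNQ5 were lower by 1.91 and 1.28. RC6 was the highest or lowest of the 6 libraries for 11 of the 18 (61.1%), against 48.7% of all genes tested. Without RC6 the log2 fold change between the breeds went from -0.45 to -0.05 for KCNH2, from -0.42 to -0.05 for KCNIP2 and from 0.51 to 0.08 for KCNQ5, with adjusted p-values of 0.936, 0.956 and 0.887 in limma. In RC6 the slow fibre markers stood high and the fast fibre markers low beside RC4 and RC5, with MYH7 at 6294 against 3840 and 3237 FPKM and MYH1 at 443 against 1511 and 2162 FPKM. The part of the fibre markers in these 4 genes was not tested.

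**Figure D5:**
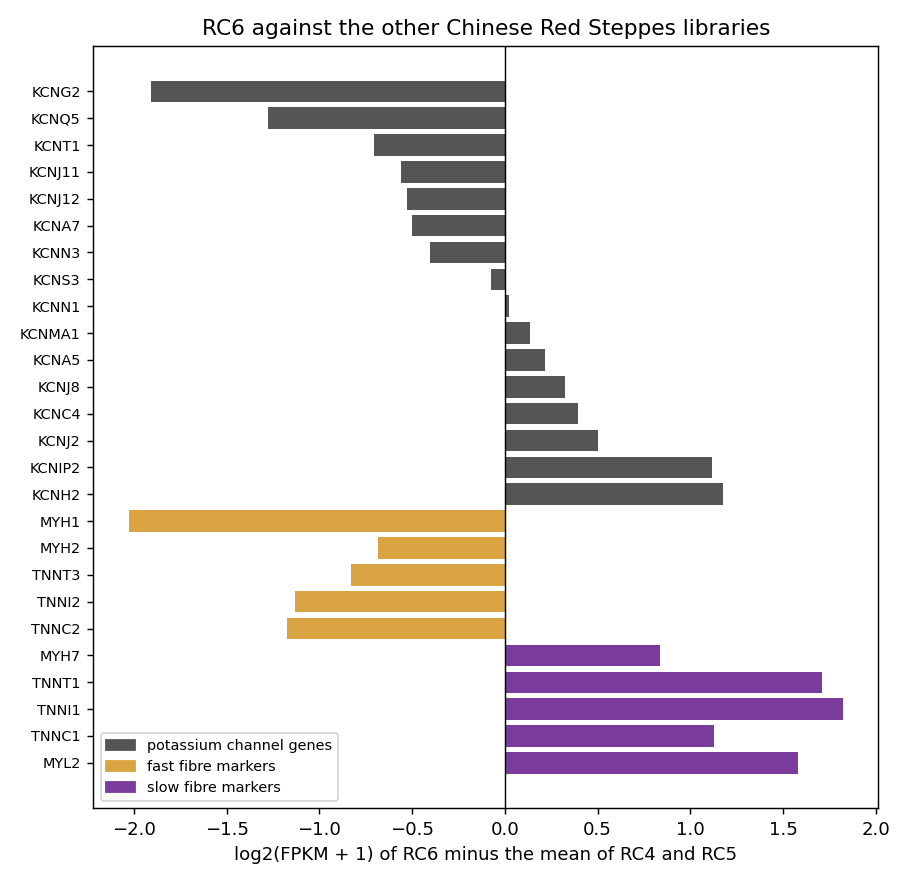
Bars give log2(FPKM + 1) of RC6 minus the mean of RC4 and RC5 for 16 potassium channel genes with a mean of at least 1 FPKM and for the slow and fast fibre markers. KCNH2 (1.18) and KCNIP2 (1.12) lie above 0, and KCNG2 (-1.91) and KCNQ5 (-1.28) below. All slow fibre markers lie above 0 and all fast fibre markers below, so every bar shares a side with the slow or the fast fibre markers.

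Partners of the channels outside the KCN names showed no call. Of 11 listed partner genes, 9 were matched and 2 were at a mean of at least 1 FPKM, and 0 were called in limma, with 0 at an unadjusted p under 0.05. ABCC9, a sulfonylurea receptor that completes ATP-sensitive channels, was at 2.52, 2.74 and 2.98 FPKM in Wagyu and at 2.37, 2.29 and 1.68 FPKM in Chinese Red Steppes. All 3 Wagyu values were the higher ones, as they were for 11.4% of all genes tested, with a log2 fold change of 0.27 (SE 0.16, adjusted p 0.477 in limma). ABCC8, the other receptor of this kind, was at 0.66 to 1.25 FPKM. The level of the pore gene KCNJ11 was thus 23.1 to 37.7 times that of ABCC9 in each library, and that of KCNJ8 was 1.60 to 4.31 times that of ABCC9. In the RefSeq annotation KCNJ11 lies beside ABCC8 and KCNJ8 beside ABCC9. CALM3, a calmodulin gene, was at 53.0 to 83.6 FPKM in Wagyu and at 66.1 to 107 FPKM in Chinese Red Steppes (log2 fold change -0.31, adjusted p 0.569 in limma).

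Other potassium pathways and the ion carriers that work beside them gave the same picture at the level of calls. Of 9 genes of other potassium pathways, 6 were tested, 4 lay above 0 and 0 were called (0 at an unadjusted p under 0.05), with a median log2 fold change of 0.08. CCDC51, the pore of the mitochondrial ATP-sensitive channel, had the smallest adjusted p of them, at 6.18 to 8.18 FPKM in Wagyu and 4.36 to 5.72 FPKM in Chinese Red Steppes (log2 fold change 0.37, SE 0.17, adjusted p 0.366 in limma). The highest of them was TMEM38A, a potassium-permeable channel of the sarcoplasmic reticulum, at 151 to 187 FPKM in Wagyu and 156 to 169 FPKM in Chinese Red Steppes. Of 13 genes of the sodium-potassium pump and of potassium-chloride transport, 11 were tested, 7 lay above 0 and 0 were called (2 at an unadjusted p under 0.05), with a median of 0.26. ATP1B4, a muscle protein of the pump's beta family, was at 12.7 to 17.3 FPKM in Wagyu and 9.26 to 11.5 FPKM in Chinese Red Steppes (log2 fold change 0.48, SE 0.16, adjusted p 0.29 in limma). ATP1B1, a beta subunit of the pump, was at 51.3 to 82.1 and 81.3 to 174 FPKM (log2 fold change -0.88, SE 0.30, adjusted p 0.293 in limma). Of 6 other channel genes of muscle excitability, all 6 were tested and 0 were called (1 at an unadjusted p under 0.05), with a median of 0.09. CACNB1, the beta subunit of the muscle calcium channel, was at 103 to 142 FPKM in Wagyu and 65.5 to 101 FPKM in Chinese Red Steppes (log2 fold change 0.54, SE 0.20, adjusted p 0.308 in limma). Over all genes tested in limma the median was 0.03, 53.7% lay above 0 and 14.5% had an unadjusted p under 0.05.

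At the edge of the rule the members may be single reads. Of the 65 members, 31 were above 0 in all 6 libraries and 9 in 1 library, and 26 members had fewer than 10 recovered reads in all. KCNIP1, KCNIP4, KCNE1, KCNJ5, KCNRG, KCNU1 and KCNH3 had 1 recovered read in 1 library each and lay just inside the rule. For a gene above 0 in 1 library, 1 read is the fewest possible, and the true number may be higher. Between 38 members, in RC6, and 53 members, in RC4, were above 0 in a library. The 26 KCN genes just outside it had 0 reads in all 6 libraries, among them 13 voltage-gated pores such as KCNA1, KCNA4 and KCND2, 6 inward rectifiers such as KCNJ3, KCNJ10 and KCNJ16, 6 tandem-pore channels and KCNE2. A count of 0 allows up to 3 reads in each library. KCNIP3, a calcium-binding partner of KCND channels, is entered under its Ensembl identifier in place of a gene name and so fell outside the rule. It had 3, 3 and 1 reads in Wagyu and 1, 0 and 1 reads in Chinese Red Steppes.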

How the data were processed

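LDM from 3 Wagyu and 3 Chinese Red Steppes males was sequenced as 1 paired-end poly(A) library per animal. The deposited FPKM values of 21972 genes were made by the authors per gene length and per reads counted to genes, with no other scaling. The paper's methods name TopHat and UMD_3.1.1, the submitters' processing notes HISAT2 and UMD3.1, and which made the values was not settled. How strand and shared reads were treated is not given there. The authors also deposited raw counts for 205 genes, labelled as a breed comparison with cutoffs on fold change and false discovery rate. From these counts the reads counted to genes, 15438095 to 16197141 per library, were worked out. With these totals the FPKM became whole reads for 16770 of 16770 genes above 0 (100%, tolerance 1e-06 of a gene's highest reads), equal to the deposited counts for 203 of 205 genes. The smallest gene length that made the 6 levels whole was used, so wholeness alone does not show the true reads. The true reads may be a multiple. In each library 199 to 205 of the 205 genes were above 0, so they say little of genes above 0 in few libraries. Recovered reads summed to 99.78% to 99.82% of each total. The authors' columns of breed means, fold change and false discovery rate were not used. A count of 0 is taken to allow 3 reads, for counting error only. No library pair agreed within sampling noise, so all 6 were kept.

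limma (3.58.1, R 4.3.3, trend) on log2(FPKM + 1) was the main test, two-sided, with Benjamini-Hochberg adjustment over the 9990 genes whose mean FPKM reached 1. edgeR (4.0.16, quasi-likelihood) and DESeq2 (1.42.0) on recovered reads, other filters, pseudocounts of 0.1 and 0.5, other scalings and each library left out were alternatives. Named were all members with a mean of at least 1 FPKM, members past a threshold, members from 0.1 FPKM without overlap (up to 12), the highest of each subfamily, those nearest the rule, and up to 4 genes of each partner list by adjusted p. KCND1, KCND3, KCNMB3, KCNAB1, KCNQ1, KCNQ3, KCNE1L, ABCC8 and TMEM38A were named after their values were seen. Some genes are not reported here by name. The members and lists were chosen with earlier results of these data known. RefSeq (ARS-UCD2.0), matched by symbol for 64 of 65 members, gave neighbouring genes only.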

Additional observations from a re-analysis of the deposited data

How the results depend on the processing

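No paired analysis was possible because the labels give the breeds no shared animal, litter or batch. The number of members called was 0 in limma under every filter, scaling, pseudocount and left-out library, and 0 in edgeR with its filter, with or without RC6. It was 1 in edgeR without a filter, 1 in DESeq2 and 2 in DESeq2 without RC6, a setting added after the data were seen. Over all genes the 2 calls became 1 with a pseudocount of 0.1 or 0.5, 0 without a filter and 0 with a minimum of 5 FPKM, 4 without mitochondrially encoded genes and 4 in limma without trend. They became 8 in edgeR, 32 in edgeR without a filter, 237 in DESeq2, 14 in edgeR without RC6 and 242 in DESeq2 without RC6, and lay between 0 and 3 when 1 library was left out of limma. Of 311 fold changes under alternatives, for the 16 tested members that are named here, 287 kept their direction and side of the threshold, 4 passed the threshold and 20 reversed, in 6 genes whose main fold change lay between -0.14 and 0.11. KCNN3 was at -0.015 with quantile normalization, -0.014 at an equal median, -0.040 in edgeR, -0.036 in edgeR without a filter, -0.035 in DESeq2, and -0.21 and -0.20 in edgeR and DESeq2 without RC6. In those last settings KCNJ11 was at -0.12 in each and KCNJ2 at 0.16 in each. With 1 library left out, KCNJ11 ranged from -0.079 to 0.29, KCNT1 from -0.34 to 0.15, KCNA5 from -0.39 to 0.62, KCNN3 from -0.13 to 0.081, KCNJ2 from -0.46 to 0.064 and KCNS3 from -0.35 to 0.055. The cause of these changes was not tested. With 3 animals a breed an exact permutation test cannot give a two-sided p below 0.1. The 26 members with fewer than 10 recovered reads in all, a lower bound, cannot be safely compared.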
